A study of Mus musculus with 6 samples.

Results

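The piRNA pathway genes described here are 10 genes of the germ cell machinery that makes and uses Piwi-interacting RNAs, small RNAs that silence transposons. They were chosen by gene name (Piwil1, Piwil2, Mov10l1, Ddx4, Tdrd9, Tdrd1, Tdrd6, Fkbp6, Asz1 and Mael) among 26220 annotated mouse genes. Of the 10 genes, 9 had at least 1 region in the promoter tables and 5 had at least 1 assigned methylation peak. Tdrd9 had neither. Over the whole series 11401 genes had a listed region, and 26220 genes were annotated. Shares of all genes with a peak are given by library below. The set of 10 genes was chosen with its listed regions and peaks in view, so the counts and reads below describe these genes and support no test.

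Methylated DNA was captured with an antibody and sequenced (MeDIP-seq) in 6 libraries from ICR mice, 1 library a group. The groups were induced neurons made from mouse embryonic fibroblasts at 1, 3, 5 and 7 dpi, primary neurons of the hippocampus of 1-day-old pups, and the embryonic fibroblasts (MEF) of E13.5 embryos. The labels give 3 to 5 passages for all 6 groups and 1 shared input library. They do not say which factors converted the fibroblasts, what dpi stands for, or which genotype or agent any group carried. Each of the 5 other libraries was compared by the authors with the same MEF library, so the 5 comparisons are not independent. With 1 library a group there is no replicate check, and no difference below has a test of the conditions.

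In the mouse, PIWI proteins bind piRNAs and are held in germ granules by tudor-domain proteins that recognise methylated arginines on them. RNA helicases and mitochondrial-surface proteins feed RNA precursors into this machinery. The pathway works in the male germ line, and many of its genes have promoters that carry DNA methylation in somatic cells and lose it in germ cells.

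The promoter windows of 6 of the genes are shown, 5 that overlap listed regions and that of Tdrd9, which had no listed region. The sequences come from RefSeq (build GRCm38.p6, the assembly that mm10 names), run 5′ to 3′ along the gene from 250 bases before to 50 bases after a start site, and have their CpG sites, the substrate of the methylation, in capitals. RefSeq promoter windows were found for 8 of the 10 genes, and those of Tdrd1 and Mael are not shown. Listed regions overlap the first 5 windows shown. The window of Ddx4 had the most CpG sites of the genes shown, and that of Tdrd9, the gene with no listed region, had the fewest.
Fkbp6 (chr5:135349995-135350294, minus strand): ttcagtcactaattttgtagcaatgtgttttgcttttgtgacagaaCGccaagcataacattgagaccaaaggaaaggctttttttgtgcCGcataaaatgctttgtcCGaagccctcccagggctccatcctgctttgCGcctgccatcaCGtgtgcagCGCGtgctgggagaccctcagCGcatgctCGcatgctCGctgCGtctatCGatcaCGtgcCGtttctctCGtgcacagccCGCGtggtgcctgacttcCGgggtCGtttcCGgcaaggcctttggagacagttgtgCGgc
Asz1 (chr6:18109012-18109311, minus strand): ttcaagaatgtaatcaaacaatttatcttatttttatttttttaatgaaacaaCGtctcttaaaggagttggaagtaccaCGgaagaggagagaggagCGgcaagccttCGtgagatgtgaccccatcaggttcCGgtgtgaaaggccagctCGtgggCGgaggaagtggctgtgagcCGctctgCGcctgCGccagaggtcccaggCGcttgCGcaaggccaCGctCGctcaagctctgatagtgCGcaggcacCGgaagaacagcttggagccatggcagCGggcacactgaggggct
Mov10l1 (chr15:88982744-88983043, plus strand): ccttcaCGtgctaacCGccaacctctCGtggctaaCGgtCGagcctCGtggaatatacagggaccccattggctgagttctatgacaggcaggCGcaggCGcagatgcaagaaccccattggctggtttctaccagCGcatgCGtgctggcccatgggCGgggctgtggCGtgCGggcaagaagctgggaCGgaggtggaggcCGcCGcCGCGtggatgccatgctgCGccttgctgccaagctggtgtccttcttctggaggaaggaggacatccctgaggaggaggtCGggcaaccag
Piwil1 (chr5:128735996-128736295, plus strand): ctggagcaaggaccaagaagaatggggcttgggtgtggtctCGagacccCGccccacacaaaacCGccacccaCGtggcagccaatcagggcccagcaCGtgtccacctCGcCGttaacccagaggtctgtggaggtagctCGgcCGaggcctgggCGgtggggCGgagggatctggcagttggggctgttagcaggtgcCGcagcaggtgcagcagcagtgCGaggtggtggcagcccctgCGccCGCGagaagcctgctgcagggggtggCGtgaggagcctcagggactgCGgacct
Ddx4 (chr13:112652261-112652560, minus strand): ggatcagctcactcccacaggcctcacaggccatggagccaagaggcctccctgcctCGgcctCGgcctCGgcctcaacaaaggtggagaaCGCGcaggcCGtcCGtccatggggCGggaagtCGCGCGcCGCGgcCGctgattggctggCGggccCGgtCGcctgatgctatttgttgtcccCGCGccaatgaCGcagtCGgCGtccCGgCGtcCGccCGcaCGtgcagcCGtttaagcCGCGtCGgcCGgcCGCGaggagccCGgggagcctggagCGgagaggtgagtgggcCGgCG
Tdrd9 (chr12:111971309-111971608, plus strand): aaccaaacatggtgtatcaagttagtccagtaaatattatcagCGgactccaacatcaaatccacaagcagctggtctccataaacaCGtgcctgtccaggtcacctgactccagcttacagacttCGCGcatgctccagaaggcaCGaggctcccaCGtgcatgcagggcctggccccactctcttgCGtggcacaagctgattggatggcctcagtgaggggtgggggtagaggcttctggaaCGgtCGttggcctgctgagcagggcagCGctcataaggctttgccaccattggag

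CpG sites were denser in these promoters than in most promoters of the reference. The 300-base windows held 38 CpG sites in Ddx4, 24 in Mael, 21 and 32 at the 2 RefSeq starts of Fkbp6, 20 in Mov10l1, 18 in Piwil1, 17 in Asz1 and 10 in Tdrd9, against a median of 7 over 32851 promoters. Tdrd1 had 20 and 25 CpG sites at its 2 upstream starts and 3 at its internal start. The ratio of observed to expected CpG was 0.98 in Ddx4, 0.93 and 0.99 in Fkbp6, 0.78 in Asz1 and in Mael, 0.67 in Mov10l1, 0.54 in Piwil1 and 0.43 in Tdrd9, against a median of 0.38 over all promoters. The internal start of Tdrd1, with a ratio of 0.22, was the one member window below that median. The letters CACGTG, an E-box bound by dimers of MAX such as MGA with MAX, which repress germline genes in mouse embryonic stem cells, were present in windows of 7 of the 8 genes and absent from that of Asz1. Counted by window, 9 of the 11 member windows held CACGTG, and those of Fkbp6 and of the upstream starts of Tdrd1 overlap each other. Of all promoters 7.15% held CACGTG, and of the 14281 promoters with at least 10 CpG sites 10.9% did. Each match of this palindrome contains a CpG site, marked by the capitals inside the match. TCCCGC, the core letters bound by E2F6, were found on either strand in 2 of the 11 windows (Mael and Ddx4). They were in 20.0% of all promoters and 40.3% of those with at least 10 CpG sites. AACNG, a MYB core, was found on either strand in all 11 windows of the 8 genes. It was in 80.3% of all promoters and 75.8% of those with at least 10 CpG sites. These matches are letters in a window, and no factor was measured.

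**Figure D1:**
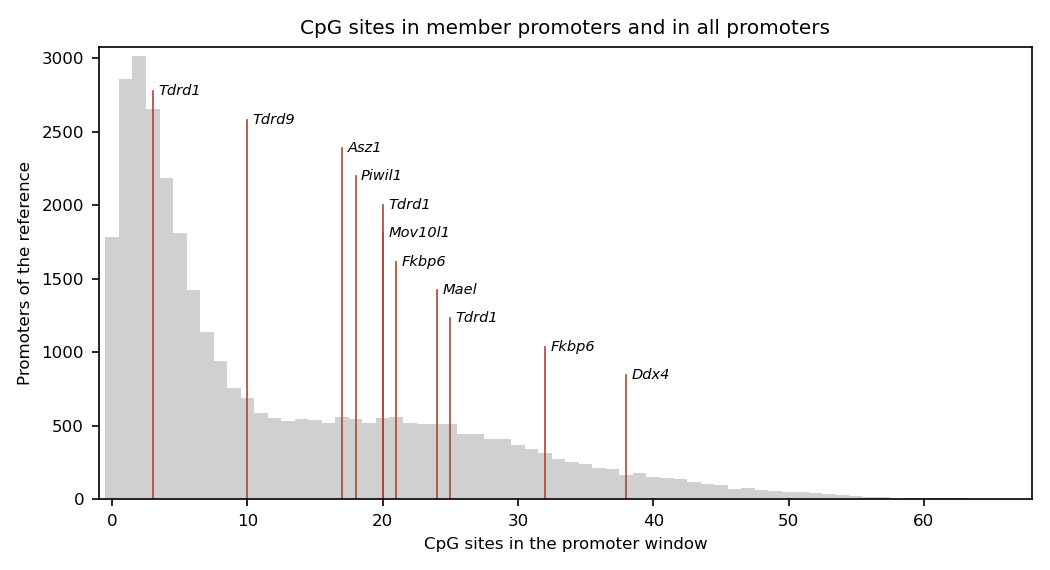
Number of promoters of the reference (grey bars, vertical axis) by the number of CpG sites in their 300-base window (horizontal axis), with each RefSeq promoter of the piRNA pathway genes as a red line whose height has no meaning. Most member windows, from Tdrd9 with 10 to Ddx4 with 38 CpG sites, lie above the median of 7, and the internal start of Tdrd1 with 3 lies below it.

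The promoter tables give regions that the authors called higher or lower than MEF near a gene's transcription start site (TSS), up to 2 kb away. They hold 29559 regions in all, of which 39 belong to the piRNA genes, 27 higher than MEF in 6 genes and 12 lower in 6 genes. In the set of RefSeq promoters used here, no other gene's start lay within 2 kb of any of the 39 regions. That set holds no promoter of Piwil2 or Tdrd6, so starts of other genes may be missing from it too. None of the 39 regions overlapped a region listed under another gene. Values at 1, 3 and 5 dpi are whole reads. Those at 7 dpi and in primary neurons had been scaled by the authors, and whole reads are named below, with folds on the scaled values. The reads behind a region in the library with more reads ran from 10 to 67 for higher regions (median 17, against 13 over all higher regions of the series) and from 11 to 35 for lower regions (median 21.5, against 13). A fold against 0 reads is a lower bound, written as at least, with that library set to 3 reads. The bound leaves out the counting error of the library with more reads. Other folds carry an exact 95% interval, which covers the counting error of both libraries. Bounds and interval limits are therefore not comparable. Neither covers more than counting error: PCR copies were not marked by molecular identifiers, so reads are not independent molecules. The windows are also listed because these same reads passed the authors' threshold. Folds and bounds can therefore be too large, and the intervals can cover less than 95%.

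Both directions were listed among the 10 genes in each comparison. At 1 dpi 4 of 10 genes had a region higher than MEF (1.77% of all genes did) and 1 had a lower one (10.6% of all genes). At 3 dpi 2 genes were higher (5.23% of all genes) and 2 lower (13.2%). At 5 dpi 5 genes were higher (3.85% of all genes) and 1 lower (10.7%). At 7 dpi 3 genes were higher (12.4% of all genes) and 2 lower (8.87%). In primary neurons 5 genes were higher (20.4% of all genes) and 6 lower (15.3%). Which of the 2 counts was larger depended on the threshold: with p of at most 1e-05 primary neurons had 5 higher and 1 lower, and with at least 13 reads a region 7 dpi had 1 higher and 2 lower. At 7 dpi the authors listed higher regions from 10 reads and lower ones only from 13 MEF reads. The 13-read filter could thus remove only higher regions there. The tables chose the genes, so nothing is read from the distance between these counts and the shares of all genes. Some genes stood in both directions within a comparison, Piwil1 at 5 dpi and Tdrd1 and Fkbp6 in primary neurons.

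**Figure D2:**
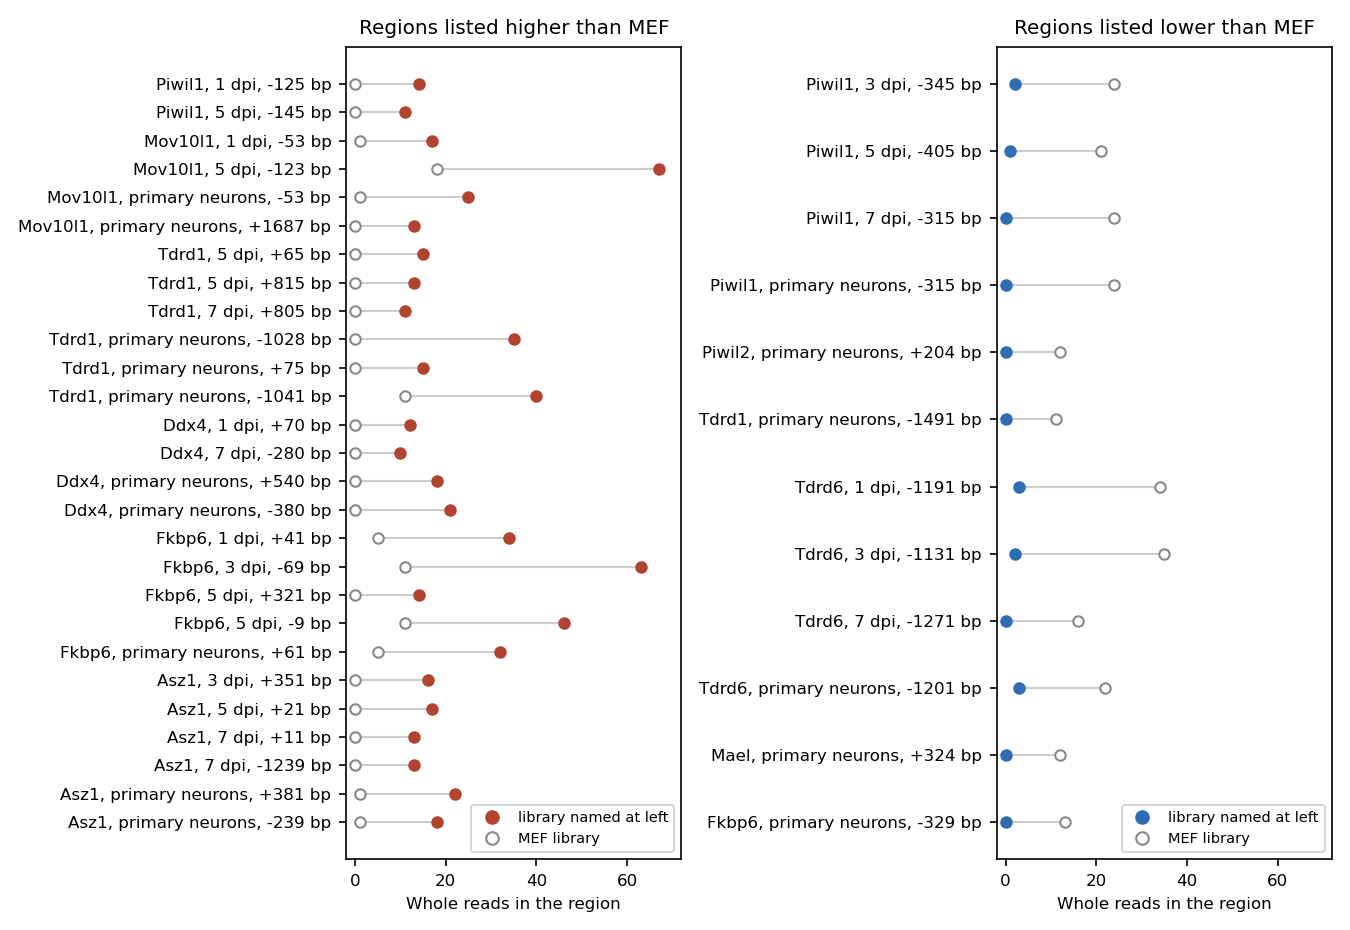
Whole reads (horizontal axis) in each of the 39 listed regions of the piRNA pathway genes, with the gene, the library and the signed distance of the region to the TSS at left. Filled points are the named library and open points the MEF library. The longest gaps are at Mov10l1 at 5 dpi (67 reads against 18 in MEF) and Fkbp6 at 3 dpi (63 against 11) on the left, and at Tdrd6 at 3 dpi (2 against 35) on the right.

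Piwil1 encodes MIWI, the PIWI protein that binds piRNAs in meiotic and postmeiotic male germ cells. Its promoter showed opposite differences at neighbouring positions. Upstream of the start, 2 reads at 3 dpi stood against 24 in MEF (12-fold lower, 2.98 to 105, chr5:128735741-128736060). At 5 dpi 1 read stood against 21 in MEF in the 200 bp from 128735741 (21.0-fold lower, 3.38 to 868). At 7 dpi and in primary neurons the same 380 bp window (chr5:128735741-128736120) held 0 and 0 reads against 24 in MEF, at least 6.0-fold and at least 8.57-fold lower on the scaled values. Nearer the start the direction was the other one. At 1 dpi 14 reads stood against 0 in MEF (at least 4.67-fold higher) in a window from 284 bp upstream to 35 bp downstream of the TSS. At 5 dpi 11 reads stood against 0 in MEF (at least 3.67-fold higher) from 244 to 45 bp upstream. The MEF reads counted in the upstream windows were thus not counted in the windows nearer the start, although the windows share up to 160 bp. The only peak assigned to Piwil1 lay 35722 bp downstream of the start in the 7 dpi library.

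Piwil2 encodes MILI, the PIWI protein of embryonic and early meiotic male germ cells. It had 1 listed region, lower in primary neurons with 0 reads against 12 in MEF (at least 4.29-fold, chr14:70428781-70429000), 94 to 313 bp downstream of its start. No comparison of the induced neurons listed it, and no library had a peak assigned to it. The nearest peak of any gene was 120 kb away, in primary neurons.

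Mov10l1 encodes the RNA helicase that binds piRNA precursors and starts their processing. Higher regions at its start were listed for 1 dpi, 5 dpi and primary neurons, and no comparison listed it as lower. The same 200 bp window (chr15:88982841-88983040) held 17 reads at 1 dpi against 1 in MEF (17.0-fold, 2.66 to 710), and 25 in primary neurons against 1 in MEF (23.3-fold on the scaled values, 3.82 to 958). At 5 dpi a wider window, from 312 bp upstream to 67 bp downstream of the TSS, held 67 reads against 18 in MEF (3.72-fold, 2.19 to 6.66). MEF reads therefore lay beside the narrower window and inside the wider one. This wider window gave 17.6 reads per 100 bp at 5 dpi, the highest density over the 39 regions, against 4.74 in MEF. A second region in primary neurons, 1528 to 1847 bp downstream of the start, held 13 reads against 0 in MEF. No region of Mov10l1 was listed at 3 or 7 dpi.

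Ddx4 encodes the mouse vasa homologue, a DEAD-box helicase of germ granules and a common marker of germ cells. Higher regions were listed for 1 dpi, 7 dpi and primary neurons, each time against 0 MEF reads. At 1 dpi the region over the start (50 bp upstream to 189 bp downstream) held 12 reads. At 7 dpi a region 430 to 131 bp upstream held 10 reads, 11.55 on the authors' scale and the lowest number of reads of any listed region of the 10 genes. In primary neurons 21 reads lay 570 to 191 bp upstream and 18 reads 350 to 729 bp downstream. The bounds ran from at least 4-fold at 1 dpi to at least 6.53-fold in primary neurons. No library had a peak assigned to Ddx4, and the nearest peaks in the 6 libraries lay 73.6 to 427 kb from its start.

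Tdrd9, a tudor-domain helicase that works with the nuclear PIWI protein MIWI2, had no listed region in any comparison. The nearest peak to its start was 11.8 kb away at 7 dpi, 49.0 kb at 5 dpi and 103 kb or more in the other libraries, and each was assigned to another gene. A gene outside the tables passed no threshold of the authors, and its reads are not in the tables.

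**Figure D3:**
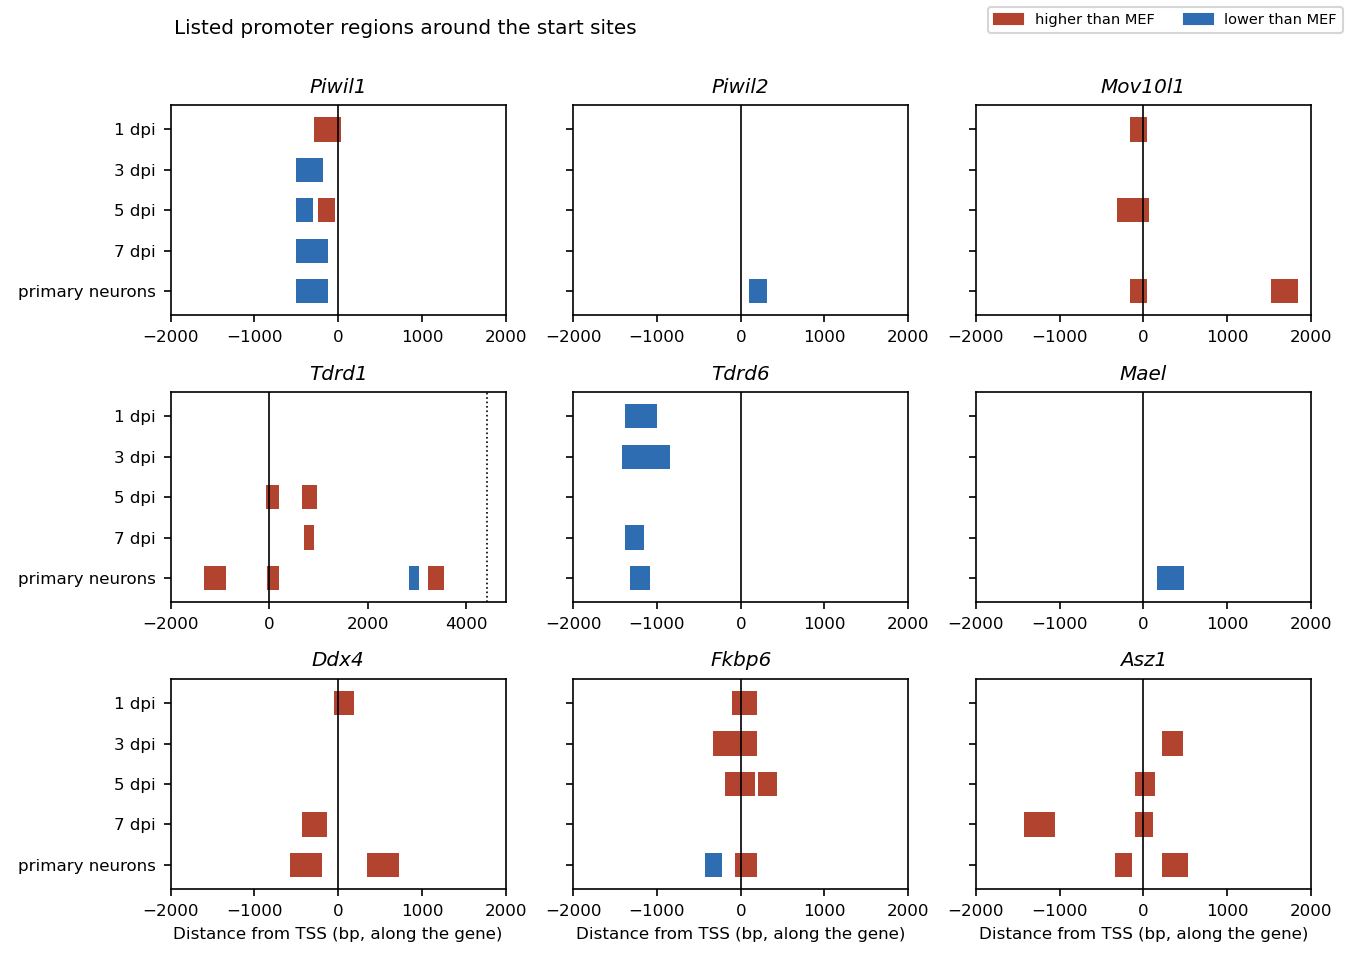
Position of each listed region (horizontal axis, bp from the TSS along the gene) by comparison (rows), with regions higher than MEF in red and lower in blue. The solid line marks the TSS, and for Tdrd1 all regions are drawn from its second upstream start, with the internal start dotted. Red and blue lie side by side at Piwil1, the Tdrd6 regions lie about 1 kb upstream, and Fkbp6, Mov10l1 and Asz1 have red regions at the start in several rows.

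Tdrd1 encodes the tudor scaffold that binds MILI. It is annotated with several start sites, and its listed regions spread over about 5 kb. At the upstream starts 15 reads at 5 dpi stood against 0 in MEF (at least 5.00-fold, chr19:56826221-56826480), and 15 in primary neurons against 0 in MEF (at least 4.67-fold) in a window that differed by 20 bp. A position about 0.8 kb downstream held 13 reads at 5 dpi and 11 reads at 7 dpi, with 0 in MEF in both windows. In primary neurons the farthest upstream region held 35 reads against 0 in MEF (at least 10.9-fold, chr19:56824961-56825400), the largest of the 17 bounds among the higher regions. Before the internal start the primary neurons were higher in one window (40 reads against 11 in MEF, 3.39-fold, 1.71 to 7.33, chr19:56829501-56829840) and lower in the next one upstream (0 against 11, chr19:56829121-56829320). Regions of Tdrd1 were listed at neither 1 nor 3 dpi.

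Tdrd6 encodes a large tudor protein of the chromatoid body, the germ granule of spermatids. Lower regions were listed for 1 dpi, 3 dpi, 7 dpi and primary neurons, all between 842 and 1421 bp upstream of the start. At 1 dpi 3 reads stood against 34 in MEF (11.3-fold lower, 3.56 to 57.7, chr17:43631301-43631680), and at 3 dpi 2 reads against 35 in MEF (17.5-fold lower, 4.50 to 150). In primary neurons 3 reads stood against 22 in MEF (7.86-fold lower on the scaled values, 2.36 to 41.0), and at 7 dpi 0 reads against 16 in MEF (at least 4.0-fold lower). The 4 windows overlap each other, so the MEF reads behind them are largely shared. No region of Tdrd6 was listed at 5 dpi, and no library had a peak assigned to it.

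Fkbp6 encodes an immunophilin that acts with HSP90 in loading piRNAs. At its start more reads than in MEF were listed at 1, 3 and 5 dpi and in the primary neurons. The windows over the start held 34 reads at 1 dpi against 5 in MEF (6.80-fold, 2.65 to 22.3), 63 at 3 dpi against 11 in MEF (5.73-fold, 2.99 to 12.1), 46 at 5 dpi against 11 in MEF (4.18-fold, 2.13 to 8.95), and 32 in primary neurons against 5 in MEF (5.97-fold on the scaled values, 2.31 to 19.6). Per 100 bp these were 11.3, 12.1, 12.8 and 12.3 reads, against 1.67, 2.12, 3.06 and 1.92 in MEF over the same windows. The 4 intervals of the fold overlap each other, but the windows also overlap and were set against the same MEF library. The intervals are therefore not independent and do not compare the 4 libraries with each other. A further region at 5 dpi, 211 to 430 bp downstream, held 14 reads against 0 in MEF. In primary neurons a region 429 to 230 bp upstream went the other way, with 0 reads against 13 in MEF (at least 4.64-fold lower, chr5:135350221-135350420). At 7 dpi no region of Fkbp6 was listed.

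Asz1 encodes GASZ, a protein of the mitochondrial surface that organises the cement between mitochondria in germ cells. Higher regions were listed for 3, 5 and 7 dpi and for primary neurons, none were lower, and MEF had at most 1 read in any of its 6 windows. The windows across the start held 17 reads at 5 dpi against 0 in MEF (at least 5.67-fold, chr6:18108921-18109160) and 13 at 7 dpi against 0 in MEF (at least 5.78-fold). Downstream of the start, 16 reads at 3 dpi stood against 0 in MEF, and 22 in primary neurons against 1 in MEF (20.5-fold, 3.32 to 847, chr6:18108521-18108840). Primary neurons also had 18 reads against 1 in MEF from 339 to 140 bp upstream (16.8-fold, 2.65 to 700). A second region at 7 dpi lay 1419 to 1060 bp upstream, with 13 reads against 0 in MEF. Mael, an HMG-box protein of germ granules, had 1 listed region, lower in primary neurons with 0 reads against 12 in MEF, 164 to 483 bp downstream of its start.

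Most listed regions of these genes had a distance to the TSS of at most 500 bp. Of the 27 higher regions, 20 had a distance to the TSS of at most 500 bp, and the median distance was 145 bp. Of the 12 lower regions, 7 lay that near, with a median of 375 bp. Over all listed regions 20.8% of the higher and 19.6% of the lower ones were within 500 bp, with medians of 1090 and 1092 bp. MEF had 0 reads in 17 of the 27 higher regions, while over all higher regions it had 0 reads in 89.0%. In the lower regions, 7 of 12 had 0 reads in the other library, against 89.9% over all lower regions. The genes were chosen with these regions known, so nothing is read from these differences. The regions are also not separate units, since 34 pairs of windows of the same gene overlap.

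Peaks called by the authors in each library against input gave another view of the same reads. No peak in the MEF library was assigned to any of the 10 genes. Promoter-class peaks were assigned to 2 of them in the 1 dpi library (0.24% of all genes had one), to 1 in that of 3 dpi (0.107%), to 3 in that of 5 dpi (0.461%), to 3 in that of 7 dpi (1.73%), to 1 in primary neurons (0.622%) and to 0 in MEF (0.195%). Peaks of any class were assigned to 2 genes in the 1 dpi library (5.97% of all genes), to 2 in that of 3 dpi (4.51%), to 3 in that of 5 dpi (11.1%), to 4 in that of 7 dpi (29.2%), to 1 in primary neurons (16.8%) and to 0 in MEF (6.9%). The genes were chosen with these peaks known, so nothing is read from these counts either. Fkbp6 had a promoter peak at each time of the induced neurons, with a fold enrichment of 8.12, 11.4, 10.6 and 5.20 at 1, 3, 5 and 7 dpi and the summit 6 to 144 bp from the start. Within its own library the 3 dpi peak ranked 66 of 1447 by fold enrichment, and the 7 dpi peak 8329 of 14091. The promoter peaks of Mov10l1 had 5.83-fold enrichment at 1 dpi and 8.61-fold at 5 dpi. Asz1 had one of 7.57-fold at 7 dpi, with its summit 88 bp from the start.

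Tdrd1 had promoter-class peaks in 3 libraries, at different starts. At 5 dpi (6.89-fold) and in primary neurons (8.87-fold, rank 368 of 6636) the summit lay 1184 and 1202 bp before the internal start, and at 7 dpi (7.31-fold) 935 bp after an upstream start. It also had a gene-body peak 17114 to 17451 bp downstream of the internal start in the libraries of 3, 5 and 7 dpi and primary neurons, with 6.24-fold, 9.08-fold, 7.57-fold and 6.94-fold enrichment, at overlapping positions (chr19:56847738-56848263 at 7 dpi). That position had no peak in the 1 dpi or the MEF library. Of the 10 promoter-class peaks of the piRNA genes, 8 overlapped a listed region of the same gene and library. The exceptions were Tdrd1 at 5 dpi and Fkbp6 at 7 dpi. The promoter-class peak of Tdrd1 in primary neurons overlapped both a higher and a lower region. Not every listed region had a peak. In primary neurons the start windows of Fkbp6 (32 reads against 5 in MEF) and Mov10l1 (25 against 1) had none. The nearest peaks of that library lay 18.0 kb and 6.5 kb from their starts. Peaks and regions come from the same reads and do not check each other.

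**Figure D4:**
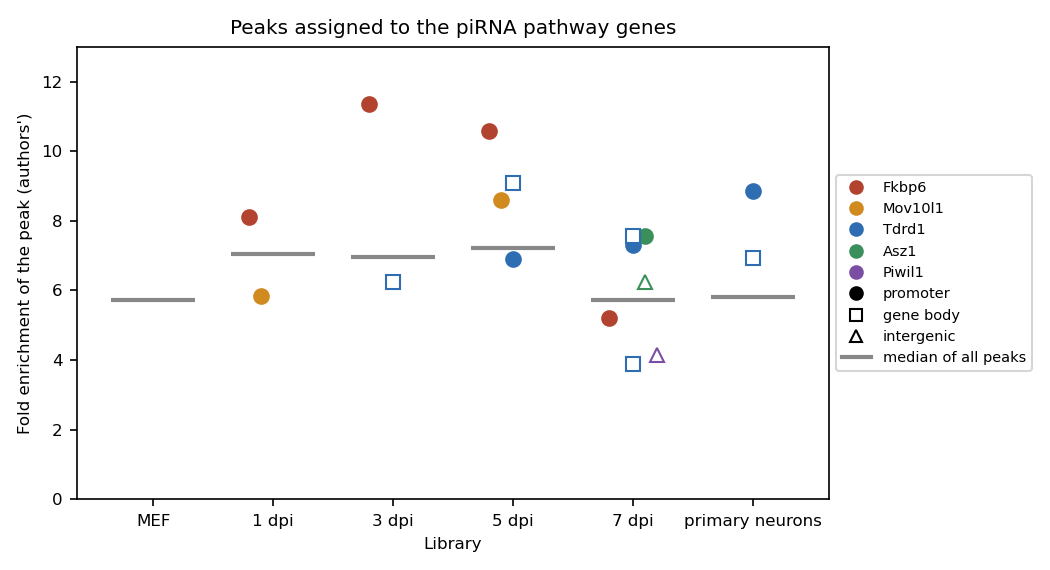
Fold enrichment (vertical axis, the authors' score of each peak) of the peaks assigned to the piRNA pathway genes in the 6 libraries (horizontal axis), with filled circles for promoter, open squares for gene-body and open triangles for intergenic peaks, and a grey line at the median of all peaks of the library. The MEF column has no point. Fkbp6 is above the median at 1, 3 and 5 dpi and below it at 7 dpi (5.20-fold against a median of 5.73).

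Over all genes, the median promoter-class peak had 6.53-fold, 7.15-fold, 6.89-fold and 5.46-fold enrichment at 1, 3, 5 and 7 dpi and 5.65-fold in primary neurons, against 5.73-fold in MEF, from 69, 29, 125, 461 and 165 such peaks against 53 in MEF. The strongest promoter-class peak had a 22.6-fold, 12.6-fold, 28.7-fold and 18.0-fold enrichment at 1, 3, 5 and 7 dpi and 20.4-fold in primary neurons, against 7.95-fold in MEF. The libraries held 1886, 1447, 3918 and 14091 peaks at those times and 6636 in primary neurons, against 2165 in MEF. The part of these differences in the lack of MEF peaks at the piRNA genes was not tested. RNA was not measured, so the labelled cell types could not be checked by expression. Among 8 neuronal markers 0 to 3 were listed higher and 2 to 3 lower than MEF over the 5 comparisons. Among 8 fibroblast markers 0 to 4 were higher and 1 to 2 lower. The 4 higher fibroblast markers were those of primary neurons, where Thy1 and Dcn were also listed lower. At 7 dpi Dcn was listed in both directions too. Of all genes 1.77% (1 dpi) to 20.4% (primary neurons) were listed higher, and 8.87% (7 dpi) to 15.3% (primary neurons) lower. Of 4 markers of early germ cells (Dppa3, Nanos3, Prdm1 and Pou5f1) at most 1 was listed in either direction in any comparison, and of 4 astrocyte and 4 oligodendrocyte markers at most 2. Pou5f1 was listed in none.

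Other genes of the pathway showed both directions as well. Of 22 genes chosen for roles in piRNA biogenesis, amplification and nuclear silencing, 12 had a listed region, and 21 were found in the reference by symbol. Over the whole series 11401 genes had a listed region, and 26220 genes were annotated. Higher regions were listed for 2, 4, 1 and 2 of the 22 genes at 1, 3, 5 and 7 dpi and for 7 of them in primary neurons. Lower regions were listed for 2, 4, 1 and 4 genes at those times and for 4 in primary neurons. The shares of all genes given above for each comparison apply here too.

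Among these, Tdrd12, a tudor-domain partner of PIWI proteins, was higher with 27 reads at 1 dpi against 0 in MEF (at least 9-fold) and 17 at 5 dpi against 0 in MEF in windows over its start, and with 16 in primary neurons against 0 in MEF in a window centred 1466 bp upstream. Tex15, which acts with the nuclear PIWI protein in silencing transposons, was lower in all 5 comparisons, with 0 reads in each of the other libraries against 13 in MEF in windows centred 1043 to 1103 bp upstream of its start. The 5 windows overlap, so the MEF reads behind them are shared. Pnldc1, the nuclease that trims piRNAs, was lower at 1, 3 and 7 dpi with 0 reads against 13 in MEF in windows centred 1190 to 1220 bp inside the gene. It was higher at 1 dpi (12 reads against 0 in MEF) nearer its start, and in primary neurons (18 and 14 reads, against 0 and 0 in MEF). The primary neuron window with 14 reads overlaps the windows that were lower at 1, 3 and 7 dpi, and held 0 MEF reads itself.

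Stk31, a tudor-domain kinase-like protein of germ cells, was lower upstream of its start at 3 dpi (0 reads against 22 in MEF), 7 dpi (0 against 14) and in primary neurons (0 against 12). Primary neurons were also higher in 2 other windows of Stk31, with 13 reads against 0 in MEF in each. Morc1, which represses transposons in the male germ line, had both directions side by side, as Piwil1 did. Over its start 23 reads at 7 dpi stood against 4 in MEF (7.67-fold, 2.62 to 30.5), while the window just upstream held 0 against 14 in MEF. In primary neurons Morc1 had 12 reads against 0 in MEF downstream and 0 against 11 upstream. It had promoter-class peaks at 5 dpi (6.56-fold) and 7 dpi (6.78-fold) and was the only gene of these 22 with one in any library. The summit of the 7 dpi peak lay 86 bp upstream of the start. That is inside the window, 275 to 76 bp upstream, that held 0 reads at 7 dpi. Peak and region reads thus place the 7 dpi signal differently, and the reason was not tested.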

How the data were processed

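MeDIP-seq was measured in 6 libraries, 1 a group. Titles gave the groups of the induced neurons, and cell type labels those of the 2 controls. The descriptions of the 3, 5 and 7 dpi samples name the primary neuron sheet as their table of higher regions. Each table was assigned by its own sheet name and column headers instead. CASAVA, Bowtie2 2.1.0 and the build mm10 appear in the submitters' processing notes. The peak caller and its thresholds were not given in the sources used here. Neither library totals nor the input library were analysed here, so depth is known only as reads per region.

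At 1, 3 and 5 dpi the authors deposited whole read counts per region. At 7 dpi and in primary neurons the deposited values are a scaled signal. Low values (up to 60) are whole multiples of 1.15 for 7 dpi and 0.866 for its MEF column, and of 0.966 for primary neurons and 1.04 for theirs (100% of values within 0.1 read). Whole reads were recovered by division. All 3163 regions listed in several comparisons then had equal MEF reads. The deposited log2 fold changes were not used. The deposited p-values, which match a likelihood-ratio (G) test of an even split of both values (median difference at most 0.227%), served as a filter only. In the peak lists the authors deposited tag counts at the summit, a fold enrichment and −log10 q-values.

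The genes and lists were chosen with earlier results of these data known. Beyond the 10 genes, pathway genes were named if listed in at least 3 comparisons or with a promoter-class peak in at least 2 libraries. Shares of all genes use 26220 genes with a curated RefSeq transcript. Of 16281 gene identifiers in the files 16226 matched the reference. Fold intervals are exact Clopper-Pearson 95% intervals of the reads, and a fold against 0 reads uses 3 reads. No tests between conditions were made. Motifs were searched on both strands of 32851 promoters. The step recovery, G-test and intervals were checked on simulated data, in which no threshold selected the regions. Python 3.11.15, numpy 2.4.6, scipy 1.17.1, pandas 2.3.3 and matplotlib 3.10.9 were used.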

Additional observations from a re-analysis of the deposited data

Results flagged for a closer look

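Windows listed higher in 1 library and lower in another overlapped in part at Piwil1, Fkbp6 and Pnldc1. With 1 library a group the difference between the libraries was not tested. At Piwil1 and Pnldc1 the higher windows themselves held 0 MEF reads, so no lower level is shown in the shared bases, and the 5 dpi library had both directions at neighbouring positions of Piwil1 (1 read against 21 in MEF and 11 against 0). At Piwil1 the window that was higher at 1 dpi (14 reads against 0 in MEF) shared 100 bp with the window that was lower at 3 dpi (2 against 24) and 160 bp with the windows lower at 7 dpi and in primary neurons (0 against 24 in each). The Piwil1 window that was higher at 5 dpi (11 against 0) shared 60 bp with the window lower at 3 dpi and 120 bp with those lower at 7 dpi and in primary neurons. At Fkbp6 the window that was higher at 3 dpi (63 against 11) shared 100 bp with the window lower in primary neurons (0 against 13). The 5 dpi window inside it (chr5:135349821-135350180) also held 11 MEF reads and ends before the shared bases. No lower level is therefore shown in the shared bases of Fkbp6 either. At Pnldc1 the window that was higher in primary neurons (14 against 0) shared 120 bp, 180 bp and 80 bp with the windows that were lower at 1, 3 and 7 dpi (0 against 13 in each).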

How the results depend on the processing

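Each listed region of the 10 genes rests on 1 library a group and on 10 to 67 reads in the library with more reads. Of the 161 recomputed counts, 122 stayed within 1.5 times. Some of these could not move: counts of 0, such as those of MEF peaks, stay 0 under a filter. Values at 1, 3 and 5 dpi were already unscaled, so the unscaled setting changed only the threshold there. The stricter p (at most 1e-05) left 1 gene higher at 1 and at 7 dpi, and 1 lower at 7 dpi and for primary neurons. At least 13 reads left 1 gene higher at 7 dpi and 3 lower in primary neurons. The 5 higher genes of primary neurons thus stood against 1 or 3 lower ones, and against 4 within 1 kb or without 200 bp regions, so the order of 5 and 6 turned under these 4 settings. At 7 dpi 1 higher stood against 2 lower with 13 reads and against 1 with the stricter p. The 13-read filter could remove only higher regions at 7 dpi, where lower ones start at 13 MEF reads. Regions within 1 kb of the TSS left 0 lower genes at 1 dpi and 1 at 3 and at 7 dpi, since Tdrd6 lies farther out, and without 200 bp regions 0 were lower at 5 dpi. Summits within 1 kb left 0 promoter peaks in primary neurons. The 1447 top peaks of each library left 0 at 7 dpi, for promoter peaks and any class, and the median −log10 q as minimum left 1 gene with any peak at 3 dpi and 2 at 7 dpi. Of the 22 other pathway genes, the stricter p left 1, 0 and 1 higher at 1, 3 and 7 dpi and 4 for primary neurons, with 0, 1, 0 and 0 lower at 1, 3, 5 and 7 dpi and 0 for primary neurons. At least 13 reads left 1, 2 and 1 higher at 1, 3 and 7 dpi and 1 lower in primary neurons. Unscaled reads with p of at most 0.0001, which changes the scaling and the threshold together, left 1 higher at 7 dpi. Within 1 kb 0, 2, 0 and 2 were lower at 1, 3, 5 and 7 dpi. Without 200 bp regions 2 were higher at 3 dpi, and 1, 2 and 2 lower at 1, 3 and 7 dpi. With the top peaks alone 0 had a promoter peak at 5 and at 7 dpi. The cause of the other changes was not tested. In primary neurons unscaled reads moved the 6 folds with an interval (Mov10l1, Tdrd1, Tdrd6, Fkbp6 and Asz1, the last with 2 regions) by 1 common factor. The factor was inverted for Tdrd6, the lower region. The scaling steps, 0.966 and 1.04, are so near 1 that no fold could have left its interval. This setting is therefore no check of these folds. Bounds were not recomputed unscaled. No paired analysis was possible because each group has 1 library.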
